A study of Mus musculus with 12 samples.

Results

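The 43 genes described here act in the cell cycle and in DNA replication. They were chosen by gene symbol, with earlier results of these data known. They are 19 S phase genes (Ccne1, Ccne2, Cdk2, Mcm2 to Mcm7, Pcna, Rrm1, Rrm2, Tyms, Cdc6, Cdc45, E2f1, Gins1, Gins2 and Tk1) and 24 mitotic genes (Mki67, Top2a, Ccna2, Ccnb1, Ccnb2, Cdk1, Aurka, Aurkb, Bub1, Bub1b, Plk1, Birc5, Cdc20, Cenpa, Cenpe, Cenpf, Kif11, Kif20a, Kif23, Tpx2, Nusap1, Ube2c, Cdca3 and Cdca8). All 43 were among the 13016 genes of the expression table, and all 43 were among the 10690 genes tested.

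Messenger RNA was measured in early thymic progenitors (ETPs), the first T-lineage cells of the thymus, from C57BL/6 mice. Each of 12 libraries was made by full-length amplification from 100 sorted cells, 4 libraries per genotype. All 3 groups were homozygous for floxed Ezh2 and floxed Runx1 (Ezh2 fl/fl Runx1 fl/fl). Control cells carried no recombinase, the cells called dKO carried Rag1Cre+ in addition, and the cells called dKO_Flt3ITD carried Rag1Cre+ and 1 Flt3 allele with an internal tandem duplication (Flt3 ITD/+). Rag1Cre recombines only in cells that have expressed Rag1 and in their progeny, so alleles need not be deleted in every sorted cell. Ezh2 encodes the histone methyltransferase of Polycomb repressive complex, Runx1 a transcription factor of blood cells, and Flt3 a cytokine receptor. The sources used here give neither age nor sex of the mice. Whether the 4 replicates of a group stem from different animals is not stated in the labels, and the p-values below reflect the spread among the libraries, which may be technical.

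A dividing cell first licenses its replication origins by loading the MCM helicase, then fires them in S phase with Cdc45 and the GINS complex, while ribonucleotide reductase, thymidylate synthase and thymidine kinase supply deoxynucleotides. Cyclin E with Cdk2 and the E2F factors drive entry into this phase. Later, cyclin A and the B cyclins activate Cdk1, kinesins and Aurora kinases build the spindle, and the spindle checkpoint holds the cell until every chromosome is attached. Most mitotic transcripts are themselves periodic: they accumulate in G2 and decline as cells leave mitosis, so a bulk level of such a transcript averages over cells in all phases. In bulk samples fewer cells of a kind and less RNA per cell cannot be told apart.

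The unit is RPKM, a read count divided by transcript length and library size, and differences between groups are differences of mean log2(RPKM + 1), tested with limma over all 10690 genes with Benjamini-Hochberg adjustment at 0.05. Values of single genes are listed for libraries 1 to 4 of each group in that order. Recovered reads ran from 13623436 to 33985972 per library. Of the 516 member values 21 rested on fewer than 100 reads and 2 were 0, with a median of 1732 reads. Ezh2 lay between 32.8 and 45.7 RPKM in the control libraries, at most at 29.8 in dKO and at most at 24.6 in dKO_Flt3ITD. Runx1 lay between 16.3 and 25.3, 35.9 and 58.2, and 32.6 and 58.8 RPKM, higher in the libraries labelled as deleted, and a value over the whole gene does not check a deletion of part of it. Of the ETP markers Kit, Cd44, Flt3, Ptprc, Notch1 and Hes1, all 6 were in the table, with a summed level of 320.3 to 521 RPKM in control, 289 to 375 in dKO and 283 to 323 in dKO_Flt3ITD. Flt3, altered by design in dKO_Flt3ITD, is part of that summed level. Alone it lay between 53.3 and 109.8 RPKM in control, 12.9 and 38.7 in dKO, and 7.73 and 70.1 in dKO_Flt3ITD. Control 1 correlated least with the rest, with a mean r of 0.786, and dKO_Flt3ITD 1 had the highest sum of RPKM.

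In control ETPs the levels of S phase genes ran from high to low, and those of mitotic genes from high to moderate. Pcna, the sliding clamp of DNA polymerases, was highest with 378 ± 70.6 RPKM (SD, n = 4), above 97.7% of tested genes. Mcm7 followed with 176 ± 57.4 RPKM and Mcm6 with 152 ± 80.6 RPKM, both subunits of the replicative helicase. Among mitotic genes Ccnb2, a B cyclin, had 88.4 ± 68.5 RPKM, Ube2c, a ubiquitin-conjugating enzyme of the anaphase-promoting complex, 87.3 ± 22.3, and Ccnb1 78.2 ± 11.8. The spread of Ccnb2 spans most of its mean, with 23.0 RPKM in control 1 and 160.2 in control 3, so its place in that order is not fixed. At the low end stood Ccne1, one of the E cyclins, with 1.81 ± 2.77 RPKM, above 12.8% of tested genes, and E2f1, the transcription factor of S phase entry, with 3.36 ± 2.47 RPKM. Averaged over its members as mean log2(RPKM + 1), the mitotic class stood between 4.71 and 4.83 in the 4 controls and the S phase class between 5.15 and 5.67. Single genes varied more: the median SD of a member across the controls was 0.50 on that scale for mitotic and 0.52 for S phase genes, against 0.65 over all tested genes.

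The comparison of dKO_Flt3ITD with control takes Rag1Cre, loss of both regulators and the Flt3 allele together. All 24 mitotic genes had a negative log2 difference, from −2.76 for Nusap1 to −0.04 for Cdca8, with a median of −1.04 against 0.00 over all tested genes. For 7 of the 24 the 4 dKO_Flt3ITD libraries lay below all 4 controls (Mki67, Top2a, Ccnb1, Aurkb, Bub1, Kif23 and Nusap1), against 3.51% of tested genes that were lower without overlap and 4.16% that were higher. None of the 24 passed limma, which called 1.5% of tested genes in this comparison, and 11 had an unadjusted p under 0.05, all lower, against 5.79% of tested genes lower and 13.4% in either direction. Voom on the recovered reads also called none of them, with 12 at an unadjusted p under 0.05. Of the 10690 tested genes voom called only 27 and had 1593 under 0.05 in either direction. The count of 11 was 7 without control 2 or control 4 and 5 without dKO_Flt3ITD 1, where the median was −0.68 and 22 of 24 differences were negative. Genes of a class can move together within a library, so these counts, and those below, are not counts of independent observations.

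Nusap1, a microtubule-binding protein of the spindle (chr2:119618298-119651244, GRCm38), was at 49.9, 74.7, 44.4 and 41.0 RPKM in control, 41.4, 60.1, 76.7 and 17.1 in dKO, and 0.372, 31.2, 8.26 and 7.49 in dKO_Flt3ITD. Every dKO_Flt3ITD library lay under the lowest control, and dKO_Flt3ITD 1 was close to 0. Its log2 difference was −2.76 (SE 0.70, limma adjusted p = 0.0622), with a 95% interval of −4.24 to −1.29, and a voom adjusted p of 0.0985. Ccnb1, the B cyclin that activates Cdk1 for entry into mitosis (chr13:100778650-100786570), was at 81.8, 84.3, 85.9 and 60.7 RPKM in control, 49.7, 84.3, 62.2 and 33.0 in dKO, and 20.5, 45.6, 38.1 and 21.0 in dKO_Flt3ITD. The dKO_Flt3ITD group did not overlap control, while dKO 2 matched control 2 and dKO 4 lay under all controls. The difference of Ccnb1 was −1.36 (SE 0.37, limma adjusted p = 0.0797).

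The spindle motors showed the same direction. Kif23, a kinesin of the central spindle needed for cytokinesis (chr9:61915905-61946774), was at 42.2, 47.2, 27.3 and 40.8 RPKM in control, 34.5, 52.3, 35.1 and 30.7 in dKO, and 20.9, 8.38, 4.60 and 25.2 in dKO_Flt3ITD. All 4 dKO_Flt3ITD libraries were under all 4 controls and also under all 4 dKO libraries, with a difference from control of −1.59 (SE 0.45, limma adjusted p = 0.105). Kif11, the motor that pushes spindle poles apart, was at 26.0, 12.3, 10.6 and 33.2 RPKM in control, 18.0, 38.7, 14.1 and 10.3 in dKO, and 2.02, 9.30, 4.35 and 13.2 in dKO_Flt3ITD. Its highest dKO_Flt3ITD library exceeded the 2 lowest controls, and the difference was −1.48 (SE 0.56, limma adjusted p = 0.245). Tpx2, which nucleates spindle microtubules and activates Aurora A, was at 13.2, 19.7, 19.9 and 21.3 RPKM in control, 9.72, 32.0, 15.4 and 11.3 in dKO, and 2.92, 15.8, 8.91 and 4.21 in dKO_Flt3ITD. Only dKO_Flt3ITD 2 reached the control range, and the difference was −1.33 (SE 0.51, limma adjusted p = 0.245). Kif20a, a kinesin of cytokinesis, ranged from 0.122 to 13.9 RPKM in dKO_Flt3ITD and from 6.46 to 13.1 in control, so its groups overlapped. The mean log2(RPKM + 1) of Kif11, Kif20a and Kif23 was 2.07, 3.36, 2.93 and 3.62 in the dKO_Flt3ITD libraries, under the lowest control of 4.04 and the lowest dKO library of 3.75. The other small groups averaged in this way overlapped control and dKO. These were the MCM genes, Rrm1 with Rrm2, the B cyclins, Aurkb with Birc5 and Cdca8, and Cenpa with Cenpe and Cenpf.

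Among checkpoint and Aurora genes the pattern was less even. Bub1, a kinase of the spindle checkpoint, was at 17.9, 14.0, 8.51 and 31.1 RPKM in control, 9.07, 12.7, 6.89 and 8.33 in dKO, and 2.56, 5.93, 4.21 and 6.43 in dKO_Flt3ITD. Its dKO_Flt3ITD libraries lay below every control and every dKO library, with a difference from control of −1.63 (SE 0.47, limma adjusted p = 0.108). Its relative Bub1b had a difference of only −0.31 (SE 0.44, limma adjusted p = 0.821). Aurkb, the kinase of the chromosomal passenger complex, was at 24.0, 25.3, 32.7 and 37.2 RPKM in control, 15.4, 41.9, 22.2 and 5.08 in dKO, and 9.21, 23.2, 0.0207 and 22.6 in dKO_Flt3ITD. The value of dKO_Flt3ITD 3 was near 0 while dKO_Flt3ITD 2 and 4 lay just under the lowest control, and the difference was −1.79 (SE 0.81, limma adjusted p = 0.343), or −0.75 without dKO_Flt3ITD 3. Birc5 and Cdca8, also of that complex, had −0.49 and −0.04, and its scaffold Incenp, from the kinetochore list below and named after its values were seen, had −1.07 (SE 0.62, limma adjusted p = 0.483), all 3 with overlapping groups. Aurka, the kinase of the spindle poles, was at 24.1, 27.5, 14.1 and 11.8 RPKM in control, 0.157, 8.13, 58.5 and 6.45 in dKO, and 9.50, 18.2, 12.6 and 18.4 in dKO_Flt3ITD, with a difference of −0.34 (SE 0.80, limma adjusted p = 0.907) and no separation of groups.

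Top2a and Mki67, both often used to mark proliferating cells, had no overlap with control either. Top2a, the topoisomerase that untangles sister chromatids, was at 84.7, 67.7, 57.5 and 87.7 RPKM in control, 58.7, 85.3, 98.0 and 27.0 in dKO, and 19.3, 47.4, 35.5 and 29.5 in dKO_Flt3ITD. No dKO_Flt3ITD library reached the lowest control, and the difference was −1.20 (SE 0.40, limma adjusted p = 0.180). Mki67, which encodes the Ki-67 antigen, was at 28.4, 29.5, 19.3 and 20.5 RPKM in control, 12.7, 46.4, 31.9 and 8.51 in dKO, and 6.37, 10.5, 14.8 and 14.7 in dKO_Flt3ITD. Its dKO_Flt3ITD libraries were again below all controls, while dKO 2 was the highest of all 12, and the difference was −1.06 (SE 0.49, limma adjusted p = 0.360). Cdc20, an activator of the anaphase-promoting complex, was at 12.9, 18.7, 27.7 and 22.1 RPKM in control, 4.90, 15.3, 6.83 and 16.7 in dKO, and 3.44, 8.75, 27.7 and 19.4 in dKO_Flt3ITD, with overlapping groups and −0.71 (SE 0.56, limma adjusted p = 0.639). The remaining 9 mitotic genes overlapped control and had differences between −1.32 for Plk1, the polo kinase, and −0.22 for Cenpa, among them −1.19 for Ccna2, −1.19 for Ube2c, −1.02 for Cdca3 and −0.54 for Cdk1. The centromere proteins Cenpa, Cenpe and Cenpf differed least as a group, with −0.22, −0.25 and −0.27.

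**Figure D1:**
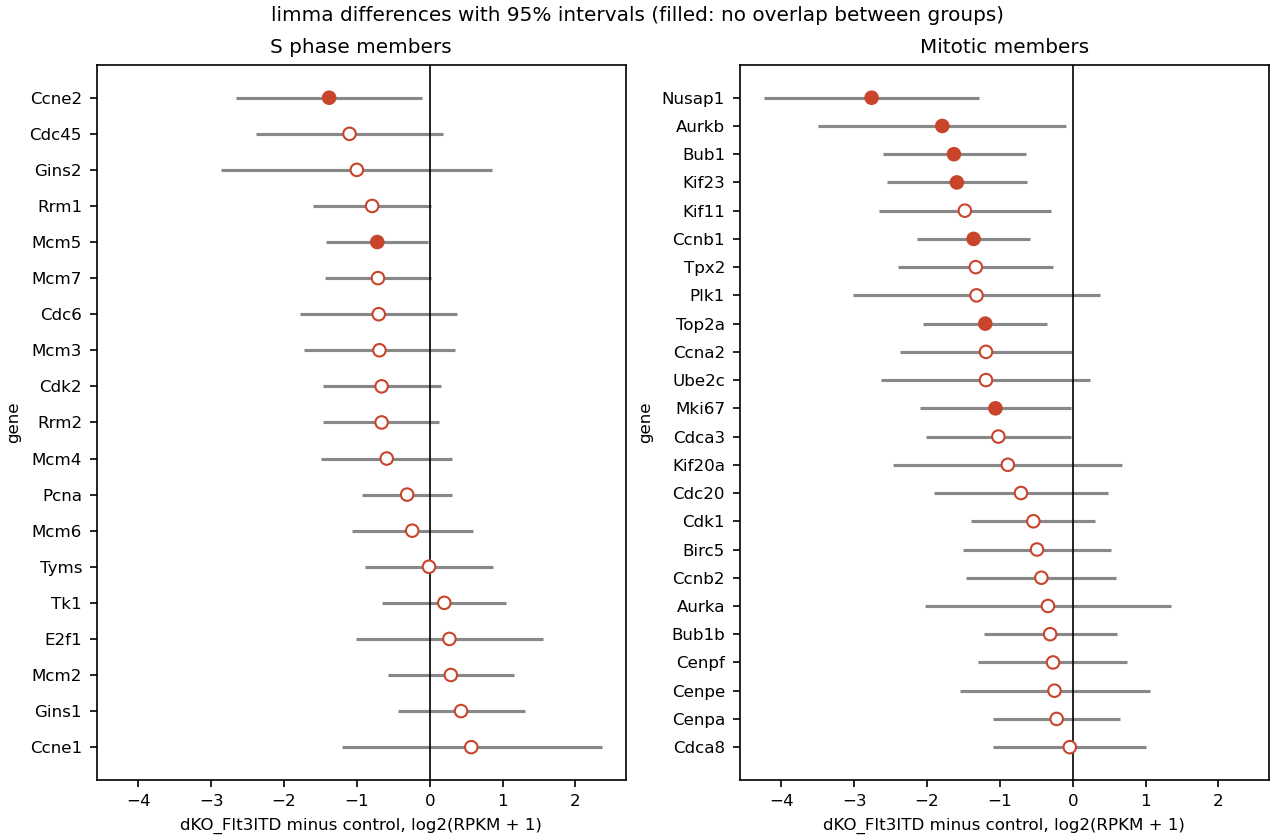
Log2(RPKM + 1) difference between dKO_Flt3ITD and control for each S phase and mitotic gene, with 95% intervals from limma; a filled point marks a gene whose 4 dKO_Flt3ITD libraries lie below all 4 controls. All 24 mitotic points lie below 0, with 7 filled, while 14 of 19 S phase points do, with 2 filled.

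Most promoters of the mitotic genes held a short element already known from such genes. Its count is therefore not independent of the choice of members. RefSeq promoters (GRCm38.p6, 250 bases before to 50 after the gene start) were matched by symbol for 35 of the 43 genes, 20 mitotic and 15 S phase. The cell cycle genes homology region (CHR), known as a binding element of the MuvB complex that keeps mitotic genes periodic, was searched as TTTGAA and TTCGAA on both strands, the latter being its own reverse complement. It occurred in 16 of 20 mitotic promoters (80.0%) and 3 of 15 S phase promoters, against 19.4% of all 27025 promoters and 14.1% of the 8003 that belong to tested genes. Within 50 bases of the gene start, a window chosen after the matches were seen, it occurred in 15 of 20 mitotic promoters (75.0%) and 1 of 15 S phase promoters, against 5.29% of all and 3.51% of those of tested genes. CCAAT, the core of NF-Y sites, was in 18 of 20 mitotic and 10 of 15 S phase promoters on either strand, against 37.9% of all and 39.7% of those of tested genes. E2F letters, searched as TTTGGCGC, TTTCGCGC and TTTCCCGC on both strands, were in 6 of 15 S phase and 1 of 20 mitotic promoters, against 1.91% of all and 3.94% of those of tested genes. These matches describe letters, not bound sites.

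Shown whole are the promoters of the 3 mitotic genes with the smallest p-values in dKO_Flt3ITD against control and of Mcm5, an S phase gene whose groups did not overlap there. Capitals mark CHR, CCAAT and E2F matches on either strand, and each sequence reads 5′ to 3′ along its gene. Kif23 (chr9:61946750-61947049, minus strand) holds a CCAAT match in its reverse form ATTGG and a CHR match. Ccnb1 (chr13:100786437-100786736, minus strand) holds CCAAT and no CHR, Nusap1 (chr2:119618048-119618347, plus strand) holds none of these letters, and Mcm5 (chr8:75109259-75109558, plus strand) holds 2 overlapping E2F matches and 3 CCAAT matches.
Kif23: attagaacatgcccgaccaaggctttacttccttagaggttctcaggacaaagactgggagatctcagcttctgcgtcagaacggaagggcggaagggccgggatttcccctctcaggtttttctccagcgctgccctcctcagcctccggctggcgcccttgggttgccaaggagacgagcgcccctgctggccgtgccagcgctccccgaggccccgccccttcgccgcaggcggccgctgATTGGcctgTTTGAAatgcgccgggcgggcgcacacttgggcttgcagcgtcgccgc
Ccnb1: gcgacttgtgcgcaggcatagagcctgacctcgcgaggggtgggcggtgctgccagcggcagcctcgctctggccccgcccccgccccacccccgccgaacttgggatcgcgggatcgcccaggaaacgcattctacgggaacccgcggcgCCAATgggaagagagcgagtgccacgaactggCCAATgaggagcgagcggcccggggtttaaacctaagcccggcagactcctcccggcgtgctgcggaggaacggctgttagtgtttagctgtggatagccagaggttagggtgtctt
Nusap1: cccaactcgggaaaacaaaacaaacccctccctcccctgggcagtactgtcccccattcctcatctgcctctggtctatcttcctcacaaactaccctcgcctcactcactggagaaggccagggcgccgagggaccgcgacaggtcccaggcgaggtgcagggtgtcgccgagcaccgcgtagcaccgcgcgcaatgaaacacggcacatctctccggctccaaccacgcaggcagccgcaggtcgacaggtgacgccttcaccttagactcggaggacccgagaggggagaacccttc
Mcm5: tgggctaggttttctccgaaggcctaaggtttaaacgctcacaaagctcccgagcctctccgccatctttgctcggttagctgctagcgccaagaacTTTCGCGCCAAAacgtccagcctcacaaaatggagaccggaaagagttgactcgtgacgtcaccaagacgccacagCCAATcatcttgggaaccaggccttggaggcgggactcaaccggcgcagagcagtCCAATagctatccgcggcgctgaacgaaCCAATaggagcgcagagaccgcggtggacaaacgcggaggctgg

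For 6 more mitotic genes the 26 bases around the CHR match nearest the gene start are given, with the match in capitals, TTCAAA being TTTGAA read on the other strand. They cover chr2:127831830-127831855 (minus strand) for Bub1, chr11:99024197-99024222 (minus strand) for Top2a, chr19:37376353-37376378 (plus strand) for Kif11, chr9:70421535-70421560 (minus strand) for Ccnb2, chr2:164769890-164769915 (plus strand) for Ube2c and chr6:124830196-124830221 (plus strand) for Cdca3.
Bub1: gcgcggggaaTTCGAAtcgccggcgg
Top2a: tagataaaggTTCAAAtgaaactagg
Kif11: gtctccatttTTCAAAattgaggcgc
Ccnb2: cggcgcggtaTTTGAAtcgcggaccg
Ube2c: agggttgcaaTTCAAAcgcgggcggc
Cdca3: tggagggaagTTTGAAactccgggct

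The median log2 difference between dKO_Flt3ITD and control was −0.86 for the 16 mitotic genes with a CHR match, with a range of −1.63 to −0.04. It was −0.93 for the 4 without one, with a range of −2.76 to −0.25. The genes with the lowest p-values, Nusap1 and Ccnb1, had no CHR match in this window. With only 4 genes on one side the medians cannot be told apart, and a gene without a match lacks only the letters searched.

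The S phase genes differed from control less evenly in dKO_Flt3ITD. Of 19 genes 14 had negative and 5 positive differences, with a median of −0.66, and none passed limma or voom. Ccne2 and Mcm5 were the 2 genes whose 4 dKO_Flt3ITD libraries lay below all controls, and also the 2 with an unadjusted p under 0.05. That count was 4 in voom, 7 when every library was rescaled to a fixed sum, 4 without control 1 or without dKO_Flt3ITD 1, 3 or 4, 1 without control 2, and 0 without control 3, control 4 or dKO_Flt3ITD 2. Of all tested genes 5.79% were lower at that threshold in limma, and voom had 1593 of 10690 under it in either direction. Rescaling to a fixed sum also moved the median of all genes down, to −0.21. The S phase median was −0.23 without dKO_Flt3ITD 2, the library in which 10 of the 19 genes had their lowest value of all 12.

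Ccne2, the E cyclin with the higher level in control, was at 4.20, 3.87, 4.90 and 7.50 RPKM in control, 0.261, 3.94, 5.31 and 0.551 in dKO, and 1.96, 0.834, 0.113 and 3.53 in dKO_Flt3ITD. The dKO_Flt3ITD values were all under the lowest control, dKO 1 and 4 were as well, and the difference was −1.38 (SE 0.61, limma adjusted p = 0.329). Ccne1 was at 5.94, 0, 0.738 and 0.549 RPKM in control, 0.275, 5.54, 8.59 and 6.86 in dKO, and 0.319, 0, 11.5 and 4.55 in dKO_Flt3ITD, high or near 0 within each group, with a difference of 0.57 (SE 0.85, 95% interval −1.21 to 2.36). Cdk2, the kinase of both E cyclins, was at 77.0, 26.8, 28.5 and 37.6 RPKM in control, 22.2, 15.5, 22.3 and 29.4 in dKO, and 18.4, 27.2, 25.2 and 26.7 in dKO_Flt3ITD. In each mutant group 3 of 4 libraries lay under the lowest control, and control 1 stood far above the rest, with a difference of −0.66 (SE 0.38, limma adjusted p = 0.487), or −0.33 without control 1. E2f1 stayed low in all groups, from 0.245 to 8.83 RPKM.

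The MCM genes encode the 6 subunits of one helicase, and their differences ran from −0.72 to 0.29. Mcm5 (chr8:75109569-75128439) was at 58.7, 70.2, 87.5 and 85.0 RPKM in control, 46.0, 54.4, 93.5 and 85.5 in dKO, and 57.8, 30.8, 46.2 and 48.7 in dKO_Flt3ITD. Every dKO_Flt3ITD library was below every control, with dKO_Flt3ITD 1 just under control 1, and the difference was −0.72 (SE 0.33, limma adjusted p = 0.353). Mcm7 was at 104, 154, 222 and 223 RPKM in control, 119.9, 104, 136 and 156 in dKO, and 93.7, 59.1, 151 and 131 in dKO_Flt3ITD, with overlapping groups and −0.71 (SE 0.34, limma adjusted p = 0.389). Mcm3 was at 84.8, 93.2, 136 and 107 RPKM in control, 62.6, 64.1, 89.5 and 114 in dKO, and 89.6, 15.5, 107 and 109 in dKO_Flt3ITD, with dKO_Flt3ITD 2 far below the other 11 libraries. Its difference was −0.69 (SE 0.49, limma adjusted p = 0.591), and without that library it was −0.03. Mcm4 was at 79.8, 79.1, 142 and 78.2 RPKM in control, 133, 74.0, 116 and 96.2 in dKO, and 20.8, 71.7, 86.9 and 101 in dKO_Flt3ITD, where dKO_Flt3ITD 1 was lowest, with −0.59 (SE 0.43, limma adjusted p = 0.594). Mcm2 ran the other way, at 25.2, 28.3, 49.4 and 28.9 RPKM in control, 72.9, 29.6, 46.2 and 38.4 in dKO, and 34.4, 20.4, 48.5 and 68.3 in dKO_Flt3ITD, with 0.29 (SE 0.41, limma adjusted p = 0.818). Mcm6 had −0.24 (SE 0.39, limma adjusted p = 0.856). The mean log2(RPKM + 1) of the 6 subunits was 6.50 ± 0.40 for control, 6.45 ± 0.29 for dKO and 6.06 ± 0.60 for dKO_Flt3ITD (SD, n = 4), and the groups overlapped.

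Of the genes of origin firing and the fork, Cdc45 was at 38.5, 18.2, 26.6 and 52.1 RPKM in control, 48.4, 21.8, 32.2 and 13.5 in dKO, and 21.7, 2.35, 26.6 and 24.2 in dKO_Flt3ITD. The value of dKO_Flt3ITD 2 was far below the other 3 of its group, and the difference was −1.10 (SE 0.61, limma adjusted p = 0.454), or −0.37 without that library. Pcna was at 329.5, 326, 381 and 477 RPKM in control, 605, 406, 462 and 428 in dKO, and 515, 255, 238 and 264 in dKO_Flt3ITD. Libraries 2, 3 and 4 of dKO_Flt3ITD were under the lowest control and dKO_Flt3ITD 1 was above all of them, with −0.31 (SE 0.29, limma adjusted p = 0.707). Gins2, a GINS subunit, ranged from 1.03 RPKM in dKO_Flt3ITD 2 to 154 in dKO_Flt3ITD 1, and Gins1 and Cdc6, an origin licensing factor, had differences of 0.43 and −0.70. Both subunits of ribonucleotide reductase were lower on average. Rrm1 was at 48.0, 96.1, 95.3 and 99.0 RPKM in control, 84.1, 63.1, 154 and 80.2 in dKO, and 30.3, 34.5, 62.5 and 71.5 in dKO_Flt3ITD, and its difference was −0.79 (SE 0.38, limma adjusted p = 0.386). Rrm2, the regulated small subunit, was at 83.9, 131, 127 and 133 RPKM in control, 162, 137, 257 and 78.1 in dKO, and 71.9, 45.4, 72.7 and 122 in dKO_Flt3ITD, with −0.66 (SE 0.38, limma adjusted p = 0.475). Control 1 was the lowest control for both genes, and the groups overlapped. Tk1, the thymidine kinase, was at 36.6, 43.4, 50.7 and 85.4 RPKM in control, 80.1, 78.0, 86.9 and 51.3 in dKO, and 91.6, 25.3, 78.3 and 66.3 in dKO_Flt3ITD, not separated from control, with 0.20 (SE 0.40, limma adjusted p = 0.888), and Tyms, the thymidylate synthase, had −0.01 (SE 0.42, limma adjusted p = 0.997).

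Setting dKO_Flt3ITD against dKO asks what the Flt3 allele adds to the double mutant. Of the 24 mitotic genes 20 had negative differences, with a median of −0.84, and of the 19 S phase genes 16, with a median of −0.32, against 0.00 over all tested genes. No gene of the table passed limma (0%) or voom, where 824 and 835 had an unadjusted p under 0.05. In limma 8 mitotic and 3 S phase genes had an unadjusted p under 0.05, all lower, against 4.01% of tested genes lower and 7.71% in either direction. The mitotic count was 2 without dKO 2 or without dKO_Flt3ITD 1, and 4 lower without dKO 3 or without dKO_Flt3ITD 4. The S phase count was 0 without dKO 3 or without dKO_Flt3ITD 2, where the median was −0.11. It was 2 without control 2, 3 or 4, dKO 4 or dKO_Flt3ITD 3. The 3 S phase genes were Rrm1, Rrm2 and Pcna, with −0.94 (SE 0.38, limma adjusted p = 0.583), −0.98 (SE 0.38, limma adjusted p = 0.564) and −0.64 (SE 0.29, limma adjusted p = 0.641). Of the mitotic genes Kif23 had −1.54 (SE 0.45, limma adjusted p = 0.346) and Nusap1 −2.51 (SE 0.70, limma adjusted p = 0.333). For Kif23, Bub1 and Ccnb2 the dKO_Flt3ITD libraries lay below all dKO libraries, against 2.2% of tested genes lower without overlap and 2.08% higher. Ccnb2 was at 23.0, 133, 160.2 and 37.1 RPKM in control, 98.8, 83.3, 82.6 and 71.6 in dKO, and 42.6, 66.3, 46.2 and 42.3 in dKO_Flt3ITD, so that the 4 dKO_Flt3ITD values lay between the dKO values and those of controls 1 and 4. Aurka had the largest positive difference of the mitotic genes, 0.88 (SE 0.80, limma adjusted p = 0.849) with dKO 1 near 0.

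The comparison of dKO with control addresses the loss of Ezh2 and Runx1, as the labels give it, without the Flt3 allele. Control cells carried no Rag1Cre, so an effect of Rag1Cre itself cannot be told apart from that loss. S phase genes stood on both sides, 10 positive and 9 negative with a median of 0.15, and of the mitotic genes 19 were negative and 5 positive with a median of −0.23. None of the 43 passed limma, which called 1.02% of tested genes, and none had an unadjusted p under 0.05 (9.18% of tested genes in either direction). Voom called none of them and had none under 0.05 either, against 5 called and 914 under 0.05 of the 10690 tested genes. No gene of either class was separated from control, against 2.38% of tested genes lower and 3.93% higher. The smallest adjusted p of an S phase gene was that of Cdk2, −0.80 (SE 0.38, limma adjusted p = 0.562), and of a mitotic gene that of Cdc20, −0.94 (SE 0.56, limma adjusted p = 0.714). Ccne2 had −1.09 (SE 0.61, limma adjusted p = 0.668). On the positive side Ccne1 had 1.27 (SE 0.85, limma adjusted p = 0.763) and Tk1 0.50 (SE 0.40, limma adjusted p = 0.837). Bub1 had −0.77 (SE 0.47, limma adjusted p = 0.717) and Aurka −1.22 (SE 0.80, limma adjusted p = 0.753). Aurka was near 0 in dKO 1 and highest of all libraries in dKO 3, and its difference was −0.27 without the former and −2.17 without the latter. Both medians changed sign when 1 library was left out, to −0.10 for S phase without control 1 and to 0.05 for mitotic genes without dKO 4. The control libraries are shared with the comparison of dKO_Flt3ITD with control, and the dKO libraries with that of dKO_Flt3ITD with dKO, so the 3 comparisons are not independent.

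The S phase and mitotic classes were lowest in different libraries. As mean log2(RPKM + 1), the mitotic class stood at 4.77 ± 0.05 for control, 4.49 ± 0.57 for dKO and 3.80 ± 0.55 for dKO_Flt3ITD (SD, n = 4). Its values were 4.12, 5.17, 4.75 and 3.94 in dKO 1 to 4 and 3.10, 4.43, 3.71 and 3.94 in dKO_Flt3ITD 1 to 4. All 4 dKO_Flt3ITD libraries were under the lowest control of 4.71, dKO 1 and dKO 4 were too, and dKO 2 was above the highest. The S phase class stood at 5.41 ± 0.25 in control and 5.44 ± 0.26 in dKO. In dKO_Flt3ITD 1 to 4 it was 5.13, 4.15, 5.27 and 5.47, so that library 2 was far under the lowest control of 5.15 and library 1 just under it. The mitotic minus S phase level was between −0.89 and −0.32 in control, −1.39 in dKO 4 and −2.03 in dKO_Flt3ITD 1, and positive, 0.28, in dKO_Flt3ITD 2 alone. Its mean was −0.64 in control and −1.21 in dKO_Flt3ITD, a difference of −0.57, and the groups overlapped in all 3 comparisons. The mean over all tested genes stayed between 3.48 and 3.65 in the 12 libraries.

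**Figure D2:**
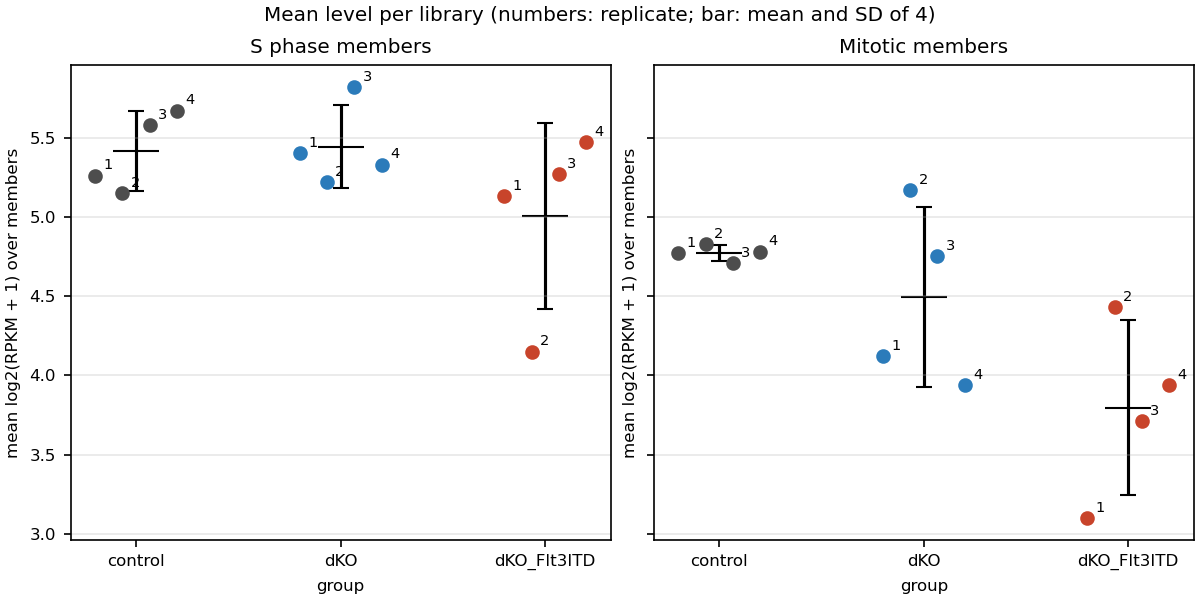
Mean log2(RPKM + 1) over the S phase genes and over the mitotic genes in each library, by group, with replicate numbers beside the points and bars for the mean and SD of 4 libraries. The mitotic level of every dKO_Flt3ITD library lies under the 4.71 to 4.83 of the controls, and the S phase level is far lower in dKO_Flt3ITD 2, at 4.15, than in any other library.

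Counted gene by gene, 20 of 24 mitotic genes in dKO_Flt3ITD 1 lay below the lowest control (83.3%), against 24.8% of all tested genes in that library. The counts were 10 in dKO_Flt3ITD 2 (background 21.2%), 14 in dKO_Flt3ITD 3 (21.7%) and 13 in dKO_Flt3ITD 4 (18.1%). In dKO 4 the count was 16 of 24, against 18.8%, in dKO 1 it was 10, against 24.3%, and in dKO 2 and dKO 3 it was 1 and 4, against 17.7% in each. Of the 19 S phase genes 14 lay below the lowest control in dKO_Flt3ITD 2 (73.7%), 8 in dKO_Flt3ITD 1, and 5 in each of dKO_Flt3ITD 3 and 4. In dKO 1 to 4 there were 5, 5, 1 and 3. Above the highest control lay 8 of 24 mitotic genes in dKO 2 and in dKO 3 (33.3% each), against 18.6% and 21% of all tested genes. The mitotic count was 2 in dKO_Flt3ITD 2 (background 22.8%) and in dKO_Flt3ITD 3 (24.2%), 1 in dKO 1 (26.5%), and 0 in dKO 4 (21.2%), dKO_Flt3ITD 1 (27.1%) and dKO_Flt3ITD 4 (20.9%). Of the S phase genes 6 of 19 did in dKO 1 (31.6%), 5 in dKO 3, 4 in dKO_Flt3ITD 1 and 0 to 2 in the other 5. Nusap1, Ccnb1, Kif23, Bub1, Top2a, Aurkb and Mki67 were below all controls in all 4 dKO_Flt3ITD libraries, 5 more mitotic genes in 3 of them, and Ccnb2 and Cdca8 in none. The libraries with the lowest values differed between the classes: dKO_Flt3ITD 1 was the lowest of all 12 for 11 mitotic and 2 S phase genes, and dKO_Flt3ITD 2 for 1 mitotic and 10 S phase genes.

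**Figure D3:**
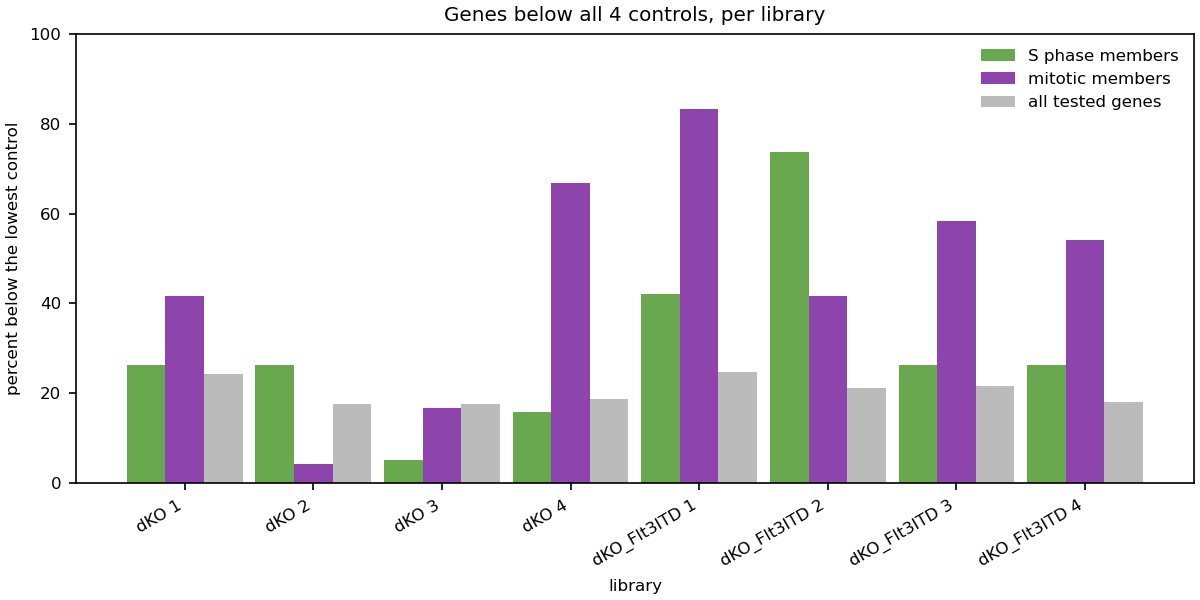
Percent of S phase genes, of mitotic genes and of all tested genes that lie below the lowest of the 4 controls, in each dKO and dKO_Flt3ITD library. Mitotic genes stand far above the background in dKO 4 and in dKO_Flt3ITD 1, 3 and 4, and S phase genes in dKO_Flt3ITD 2.

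**Figure D4:**
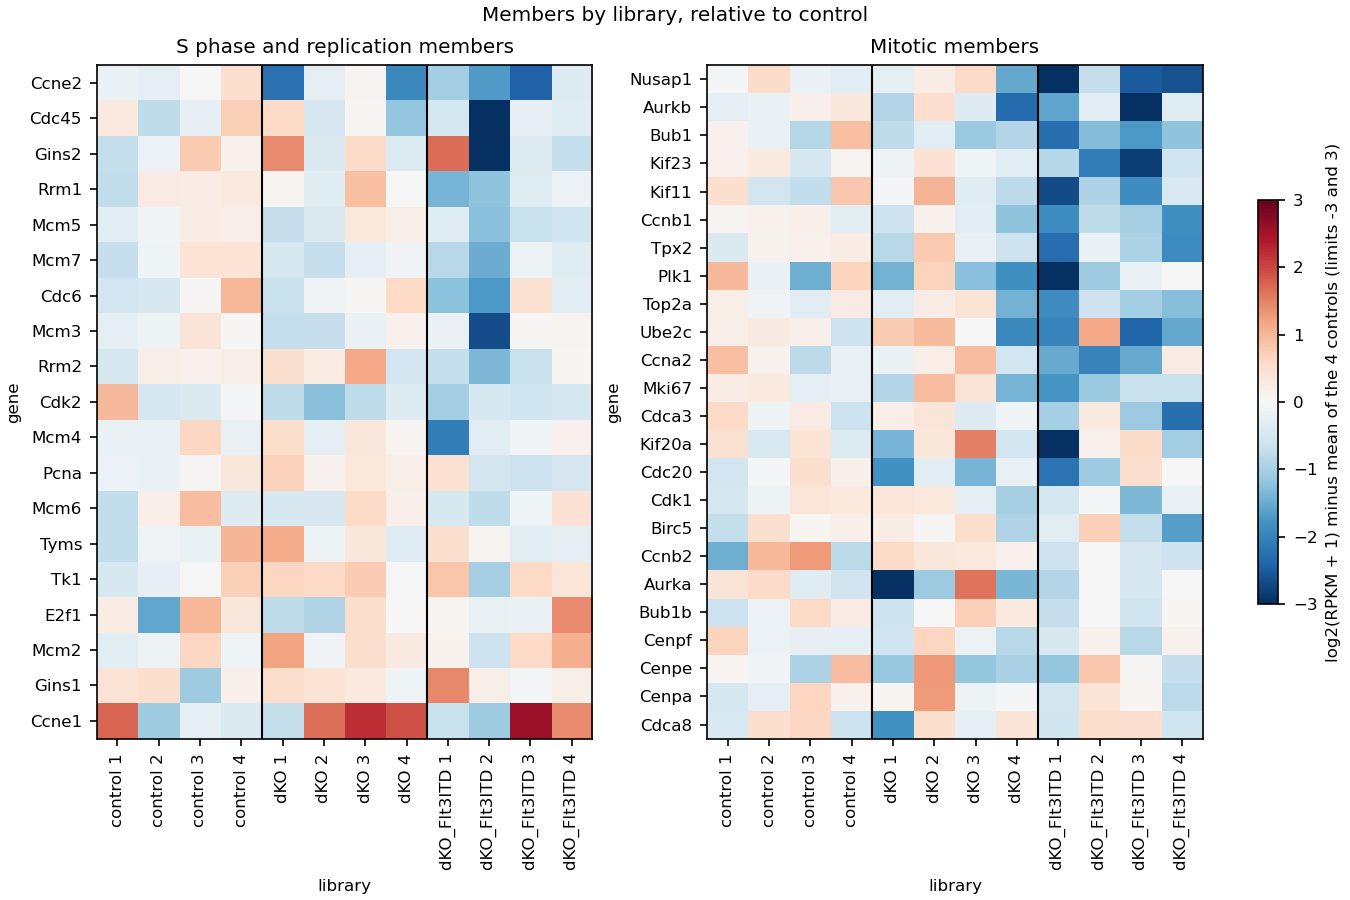
Difference of log2(RPKM + 1) from the mean of the 4 controls for each S phase and mitotic gene (rows) in each of the 12 libraries (columns), with colours limited to −3 and 3. The rows of Nusap1, Ccnb1, Kif23 and Bub1 are low in all 4 dKO_Flt3ITD libraries, and the column of dKO_Flt3ITD 2 is low in most S phase rows.

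Other genes of the pathway were grouped in 7 lists that hold no member. The lists were chosen with earlier results of these data known, so their shares are not independent of these data. In dKO_Flt3ITD against control 4 of their 173 tested genes passed limma (2.31%, against 1.5% of all tested genes), all lower: Ccnd1, Chek1, Cdc25c and Cenpn. Ccnd1, a cyclin D that drives G1 progression, was at 10.5, 4.78, 12.6 and 13.2 RPKM in control, 2.18, 0.882, 0.915 and 2.33 in dKO, and 2.16, 0, 1.99 and 0.771 in dKO_Flt3ITD. Both mutant groups lay below all controls, with −2.40 (SE 0.52, limma adjusted p = 0.0287) in dKO_Flt3ITD and −2.10 (SE 0.52, limma adjusted p = 0.0683) in dKO. The other D cyclins, named after their values were seen, went opposite ways in dKO_Flt3ITD against control, each without overlap and neither called: Ccnd2, the most abundant in control with 56.3 ± 6.04 RPKM (SD, n = 4), had −0.85 (SE 0.32, limma adjusted p = 0.242), and Ccnd3 had 1.42 (SE 0.42, limma adjusted p = 0.118). Chek1, the kinase of the replication checkpoint, was at 60.7, 19.6, 30.8 and 24.3 RPKM in control, 35.3, 31.5, 26.0 and 24.8 in dKO, and 10.1, 0.379, 13.9 and 2.01 in dKO_Flt3ITD, where dKO overlapped control and every dKO_Flt3ITD library was lower, with −2.63 (SE 0.62, limma adjusted p = 0.0431). Cdc25c, the phosphatase that activates Cdk1, was at 10.4, 19.2, 11.8 and 18.9 RPKM in control, 0.154, 5.48, 2.76 and 6.00 in dKO, and 0.359, 2.93, 4.21 and 0.637 in dKO_Flt3ITD, low in both mutant groups, with −2.58 (SE 0.63, limma adjusted p = 0.0488). Cenpn, which binds centromeric nucleosomes, was at 19.0, 36.9, 24.0 and 32.5 RPKM in control, 33.5, 5.38, 23.0 and 30.7 in dKO, and 5.48, 3.43, 0.985 and 10.3 in dKO_Flt3ITD, with −2.49 (SE 0.59, limma adjusted p = 0.0433). None of these 4 passed voom, with adjusted p of 0.153, 0.121, 0.155 and 0.129, and over the alternative settings they passed in 14 of 24, 8 of 25, 9 of 25 and 9 of 25. Ccnd1 did not pass without control 1, 3 or 4 or dKO_Flt3ITD 2 or 4 (limma adjusted p from 0.0561 to 0.0910). Of the 12 fits without 1 library Chek1 failed in 9 (all but those without dKO 1, dKO_Flt3ITD 1 or 3), Cdc25c in 10 (all but dKO 1 and dKO_Flt3ITD 3) and Cenpn in 9 (all but dKO 1, dKO 2 and dKO_Flt3ITD 4), with limma adjusted p up to 0.120, 0.154 and 0.118.

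List by list, in dKO_Flt3ITD against control, the counts at an unadjusted p under 0.05 stand beside 5.79% of all tested genes lower. There 36 of 40 genes of condensin, spindle and cytokinesis were negative, with a median of −0.51 and 9 lower at an unadjusted p under 0.05, among them Kif18a with −2.37 (SE 0.62, limma adjusted p = 0.0727) and Tubb5 with −1.04 (SE 0.29, limma adjusted p = 0.0948). Of 35 kinetochore and checkpoint genes 27 were negative, with a median of −0.41 and 1 called, Cenpn, and Cenpo had −2.23 (SE 0.58, limma adjusted p = 0.0688). Of 20 origin licensing and firing genes 19 were negative, with a median of −0.58, 5 lower at an unadjusted p under 0.05 and none called, the nearest being Mcmbp with −0.88 (SE 0.26, limma adjusted p = 0.125). Of 31 genes of polymerases, the clamp loader and the fork 20 were negative, with a median of −0.34, none called and Prim2 nearest with −1.13 (SE 0.46, limma adjusted p = 0.282). Of 20 cell cycle transcription factors 13 were negative, with a median of −0.50 and none called. Among them Lin9, a subunit of the MuvB complex, was at 11.8, 11.2, 14.5 and 9.52 RPKM in control, 7.02, 13.3, 14.5 and 15.6 in dKO, and 1.08, 1.22, 4.50 and 4.98 in dKO_Flt3ITD, with all dKO_Flt3ITD libraries below all others and −1.85 (SE 0.48, limma adjusted p = 0.0727), and E2f6, a repressor of the E2F family, had 1.93 (SE 0.59, limma adjusted p = 0.132). The other MuvB subunits of that list, Lin37, Lin52 and Lin54, were named after their values were seen. They had 0.01, −1.35 and −0.53 (limma adjusted p = 0.972, 0.336 and 0.754), all with overlapping groups. Of 15 G1 cyclins, kinases and phosphatases 11 were negative, with a median of −0.35 and 3 called. Of 12 CDK inhibitors and antiproliferative genes 7 were negative, with a median of −0.15 and none called, and Cdkn1a, which encodes the inhibitor p21, was nearest with 1.94 (SE 0.57, limma adjusted p = 0.116). Of the remaining lists, 5 kinetochore genes, 2 genes of polymerases and the fork and 2 transcription factors were lower at an unadjusted p under 0.05. So were 4 G1 genes and 2 CDK inhibitors or antiproliferative genes. Each of these lists but the kinetochore one also had 1 gene higher at that threshold. In the other comparisons no gene of the 7 lists passed. The list medians then ran from −0.52 (origin licensing and firing) to 0.17 (CDK inhibitors) in dKO_Flt3ITD against dKO, and from −0.34 (G1 genes) to −0.02 (CDK inhibitors) in dKO against control.

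**Figure D5:**
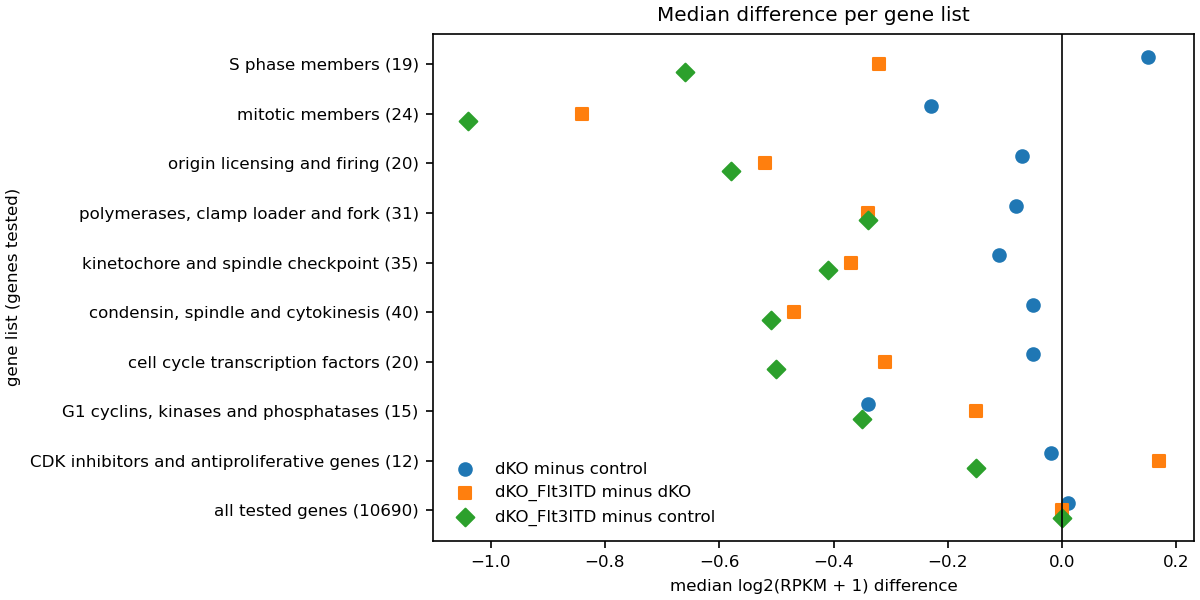
Median log2(RPKM + 1) difference of each gene list in the 3 comparisons, with the number of genes tested in parentheses. In dKO_Flt3ITD against control the mitotic genes have the lowest median of the cell cycle lists, −1.04, and the S phase genes −0.66.

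Genes of other cell types and of sample handling were read beside these results. The summed level of the 6 macrophage markers in the table was 11.2 to 57.1 RPKM in control, 36.6 to 107 in dKO and 49.4 to 119 in dKO_Flt3ITD, where 5 of 6 had positive differences. Spic and Emr1 rose there (limma adjusted p = 0.0478 and 0.0481), C1qb had −1.57, and Mrc1 rose in dKO (limma adjusted p = 0.0163). Of the granulocyte markers 4 of 7 were in the table, with summed levels of 66.4 to 243, 24.4 to 133 and 37.7 to 1317 RPKM, and in dKO_Flt3ITD Ctsg rose (limma adjusted p = 0.0247) while Mpo had −1.50. The 7 later thymocyte markers in the table summed to 33.5 to 57.8 RPKM in control, 104 to 162 in dKO and 16.5 to 94.5 in dKO_Flt3ITD. Nkg7, the only natural killer marker of 4 in the table, ranged from 780.4 to 1627, 559 to 1841 and 224 to 1441 RPKM, and of the 6 erythroid markers none was in the table. Of 13 tested dissociation stress genes 12 had negative differences in dKO_Flt3ITD against control, with a median of −1.51, and Fos, Jun and Zfp36 fell (limma adjusted p = 0.000358, 0.0373 and 0.0287). None of these 7 genes passed voom, and of the 12 fits without 1 library Spic failed in 8, Emr1 in 7, Ctsg in 4, Jun and Zfp36 in 5 each, Mrc1 in 2 and Fos in 0. The part of other cells, of handling and of sequencing depth in the differences of S phase and mitotic genes was not tested.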

How the data were processed

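Messenger RNA of 12 libraries was measured, 4 per genotype, each from 100 sorted cells, per the labels' protocols. TopHat2 2.0.10, SAMtools 0.1.19, HTSeq 0.5.4p5 and the build mm10 are listed in the submitters' processing notes. The authors deposited 1 table of RPKM values for 13016 genes. The sources used here state neither the total they divided by nor how genes were picked. Library columns were matched through the samples' descriptions, and groups and replicate numbers through their titles.

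The steps between RPKM values gave whole reads (tolerance 0.001) for 100% of genes. The 10690 genes that reached 1 RPKM in 4 or more libraries were tested. The test was limma (version 3.58.1, R version 4.3.3), run on log2(RPKM + 1) with an intensity trend and 9 residual degrees of freedom, with Benjamini-Hochberg adjustment at 0.05. Differences on this scale understate those of low genes. Voom on the recovered reads, other pseudocounts, filters, scalings and weights, a replicate term, a gene-length correction and leaving out libraries gave 25 alternatives. The limma fit alone was tested on simulated data, in which genes varied independently of each other. Amplified reads do not count separate molecules.

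The members and lists were chosen with earlier results of these data known. All members are named. Library values are given for Mki67, Top2a, Pcna and Mcm2, for the 8 members of each class with the smallest p in dKO_Flt3ITD against control, and for the 4 of each class with the smallest p in each other comparison. Of other lists, called genes or up to 3 with the smallest p are named, besides genes marked as named after their values were seen. Ccnb2 was given by library after its values were seen. Gene positions come from GENCODE mouse release 21 (GRCm38), and promoters from RefSeq (GRCm38.p6). Other steps ran in Python 3.11.15 with pandas 2.3.3, numpy 2.4.6 and, for plots, matplotlib 3.10.9.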

Additional observations from a re-analysis of the deposited data

Results flagged for a closer look

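Of 135 groups of 4 libraries looked at, 14 had 1 library so far from the other 3 that its gap, as a share of the group's range, exceeded Dixon's critical value for 4 values, which chance does in about 1 in 20 groups. No explanation was tested.

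In dKO_Flt3ITD 2, Mcm3 was at 15.5 RPKM against 89.6 to 109 in the other 3, and Cdc45 at 2.35 against 21.7 to 26.6. In dKO_Flt3ITD 1, Pcna was at 515 RPKM against 238 to 264, and Gins1 at 91.7 against 31.6 to 37.9. E2f1 was at 8.83 RPKM in dKO_Flt3ITD 4 against 2.14 to 2.79. In dKO 2, Cenpa was at 79.4 RPKM against 29.0 to 33.2, and Cenpe at 28.5 against 4.34 to 5.07.

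Among the controls, control 1 held 4 of these values. Rrm1 was at 48.0 RPKM there against 95.3 to 99.0, Rrm2 at 83.9 against 127 to 133, Cenpf at 11.3 against 5.39 to 5.85 and Tpx2 at 13.2 against 19.7 to 21.3. Mcm4 was at 142 RPKM in control 3 against 78.2 to 79.8. In control 4, Ccnb1 was at 60.7 RPKM against 81.8 to 85.9 and Ube2c at 54.1 against 96.4 to 102.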

How the results depend on the processing

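The mitotic median of dKO_Flt3ITD against control kept its sign under all 25 alternatives, between −1.31 and −0.68, and so did the S phase median, between −0.91 and −0.23. Scaling every library to 1 common sum moved the median of all genes to −0.21 in that comparison, −0.11 in dKO against control and −0.09 in dKO_Flt3ITD against dKO, and gave −1.28 for mitotic and −0.91 for S phase genes in the first. No S phase gene was called in any comparison or alternative. Mitotic genes called in dKO_Flt3ITD against control numbered 1 instead of 0 with array weights (Kif23, limma adjusted p = 0.0437) and with the replicate block (Nusap1, limma adjusted p = 0.0489), and 0 to 1 when 1 library was left out, with Nusap1 at 0.0141 without dKO_Flt3ITD 2 and Kif23 at 0.0418 without dKO_Flt3ITD 4. Same-numbered libraries did not pair: 2 of 12 pairs had deviations correlating above 0.1 (range −0.147 to 0.126), and 2 of 12 libraries correlated best with their own number.

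With 1 library left out, the medians in dKO_Flt3ITD against control ran from −1.13 to −0.68 (mitotic) and from −0.76 to −0.23 (S phase), in dKO_Flt3ITD against dKO from −0.96 to −0.61 and from −0.57 to −0.11, and in dKO against control from −0.43 to 0.05 and from −0.10 to 0.24. The S phase median of dKO against control turned to −0.05 without dKO 3 and to −0.07 without control 1, dKO 1 and dKO_Flt3ITD 1 together. The counts of mitotic genes lower without overlap then ran from 7 to 10, from 3 to 7 and from 0 to 2 in these comparisons, and of S phase genes from 2 to 5, from 0 to 2 and from 0 to 1.

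In dKO_Flt3ITD against control the S phase count of 2 was 1 with the filter of 5 RPKM, where 17 S phase genes were tested, 1 with the gene-length trend removed and 7 without the 3 first libraries. In dKO_Flt3ITD against dKO it was 1 in place of 0 when rescaled to a fixed sum, in voom and with the length trend removed, and 2 without the 3 first libraries. The mitotic count of 3 there was 1 when rescaled to a fixed sum and in voom. In dKO against control the mitotic count of 0 was 1 with the length trend removed and without the 3 first libraries. The cause was not tested. The number of all genes called ran from 5 to 210 in dKO against control, 0 to 6 in dKO_Flt3ITD against dKO and 27 to 235 in dKO_Flt3ITD against control, in which 4 libraries per group limit what can pass.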
